A study of Mus musculus with 2 samples.

Results

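Solute carriers are the membrane proteins that move small molecules into, out of and within cells. The genes described here are all those whose symbol in the array's annotation begins with Slc and a number, apart from Slc2a1, Slc2a3, Slc16a1, Slc16a3 and Slc7a11. The rule used names only and no measured value, but it was chosen with earlier results of these data known. It gave 321 genes, read by 467 probes, of 16593 genes named on the array. RNA was taken from regulatory T cells, the CD4 T cells that restrain immune responses, which were sorted from spleen as cells bearing CD4, CD25 and GITR on their surface. The 2 groups were wild-type C57BL/6 mice with a stated age of 6 weeks and Bach2 KO mice of the same background with a stated age of 7 weeks, all labelled male. The deleted gene encodes Bach2, a bZIP factor known mainly as a repressor of transcription in lymphocytes. Each genotype had 1 array, how many animals each array stands for is not stated in the labels, and the labels give neither a treatment nor the way Bach2 was deleted.

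Solute carriers are sorted into numbered families by sequence, and a family usually shares a substrate. Some sit in the plasma membrane and take up amino acids, sugars, vitamins or ions, whereas others serve the lysosome, the Golgi apparatus or the inner membrane of the mitochondrion. T cells that are activated are known to take up more amino acids and glucose, and the large neutral amino acid transporter, made of the Slc7a5 light chain and the Slc3a2 heavy chain, is a known control point of that uptake.

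With 1 array per genotype there is no replicate error and no p-value, and every value describes these 2 samples. Values are normalised intensities on the log2 scale. Detection required a detection p-value under 0.01, and a gene was read from its brightest detected probe. Technical scatter is known only from genes with several probes, whose log2 differences had an SD within a gene of 0.23 over 1734 genes. It leaves out error that the probes of a gene share. Levels at different probes depend on the probe and are not set against each other.

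Of the 321 genes, 137 (42.7%) were detected on at least 1 array and could be compared, against 7611 (45.9%) of all named genes. Of the 137, 123 were detected on both arrays, 8 in wild type alone and 6 in the knockout alone. The remaining 184 genes were not detected on either array; Slc25a35, Slc23a3 and Slc7a7 came closest, with a lowest detection p-value of 0.0113. Detection differed by substrate class. Among carriers of nucleosides, nucleotide sugars and acetyl-CoA, 24 of 34 genes were compared, and the counts were 20 of 29 for metals and heme and 26 of 39 for mitochondrial carriers. Among carriers of lipids, bile acids, amines and organic ions 9 of 46 genes were compared, and among those of monocarboxylates and dicarboxylates 1 of 15. Amino acid and peptide carriers gave 20 of 63, inorganic ion and pH carriers 19 of 48, sugar and polyol carriers 8 of 25, and vitamin and choline carriers 7 of 17. The sodium-coupled glucose and vitamin family Slc5, for example, had 1 compared member of 11, and the organic ion family Slc22 had 2 of 16.

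The arrays as a whole bear on these values in several ways. The regulatory T cell list (Foxp3, Il2ra, Ctla4, Ikzf2, Tnfrsf18, Cd4 and Cd3e) was detected on both arrays in all 7 genes, with differences from -0.10 to 0.19. The sex-linked genes went against the shared male label: Xist was detected on the knockout array only, and Kdm5d, at 9.75 in wild type and 7.08 in the knockout, was 6.37-fold lower. Eif2s3y, also Y-linked, was at 11.79 and 9.94, 3.60-fold lower. Kdm5d and Eif2s3y were still detected in the knockout, whereas Uty was detected in wild type only. Of 6 compared solute carrier genes on the X chromosome 4 were above 0, where 3556 of all 7611 genes compared were. The median of the 6 was 0.23, against -0.05 over all 239 compared genes on the X chromosome. Of the 6, 5 were detected on both arrays and within 1.5-fold. The other, Slc6a8, was detected on the knockout array only. Markers of other cells also differed, and so did cell cycle genes, which mark no single cell type. The summed intensity of 10 neutrophil markers was 3489 in wild type and 1019 in the knockout, that of 7 mast cell and basophil markers 508 and 1493, and that of 9 cell cycle genes 3132 and 10244. It was 2004 and 3978 for 8 markers of NK and CD8 T cells, and 1343 and 1849 for 7 B cell markers. Of 6 detected NK and CD8 markers 4 were at least 1.5-fold higher, where 8.15% of all genes compared were. Of the 4, Klrk1 was detected in the knockout only and was counted by its bound. Nkg7 was 3.24-fold higher, and Cd8b1 and Eomes differed by 0.20 and 0.37. Cd8a and Ncr1 were not detected. Among B cell markers, Cd79b and Cd22 were 2.24-fold and 2.14-fold higher and Fcmr was 2.58-fold lower. Cd79a was detected in wild type only, and Blnk, Ms4a1 and Pax5 were not detected. These lists were chosen with earlier results of these data known. The part of the listed genes and cells in any result was not tested. The array held no probe annotated to Bach2, so the deleted gene is not analysed here.

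As a group the solute carrier genes were centred where all genes were centred. Their median difference, knockout minus wild type, was -0.028, and the median over all 7611 genes was also -0.028. The quartiles were -0.27 and 0.27 for the carriers and -0.26 and 0.22 for all genes. Of the 137, 7 were higher in the knockout by 1.5-fold or more (5.11%), where 8.15% of all genes compared were. In the other direction 11 were lower by as much (8.03%), where 6.77% of all genes were. At 2-fold, 2 were higher (1.46%) and 2 were lower (1.46%), against 3.27% and 1.55% of all genes. These shares are near those of the array as a whole. On the series matrix values, which keep a constant background, 6 were at least 1.5-fold higher (4.38%, against 4.87% of all genes) and 3 at least 1.5-fold lower (2.19%, against 2.93%). In bulk RNA, fewer cells of a type and less RNA per cell cannot be told apart.

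**Figure D1:**
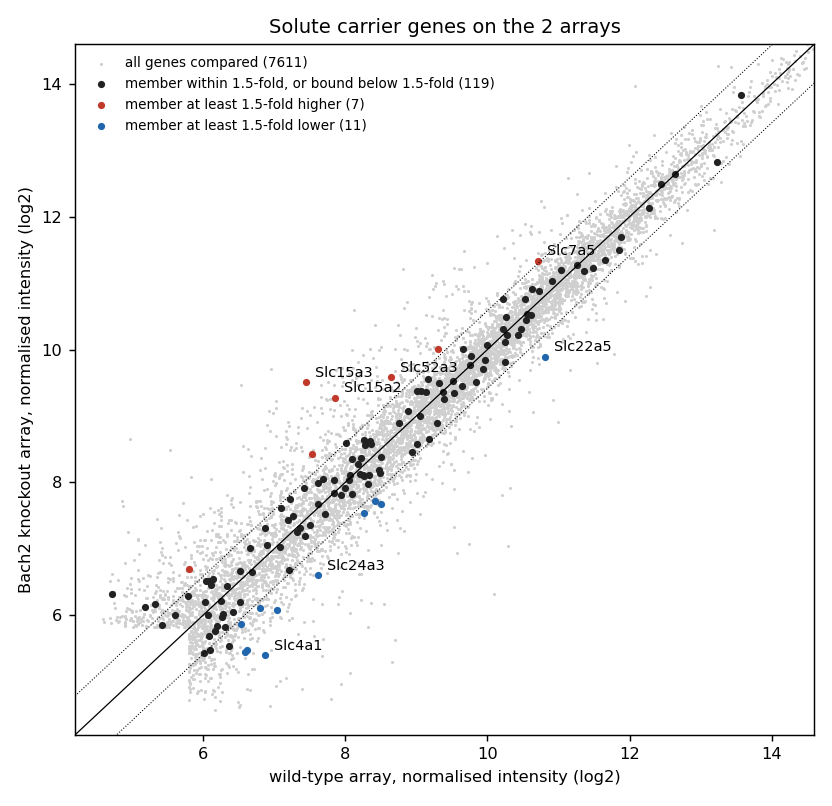
Normalised intensity (log2) of each gene on the wild-type array (x axis) and on the Bach2 knockout array (y axis), with all 7611 compared genes in grey and the 137 solute carrier genes as larger points. The solid line marks equal values and the dotted lines 1.5-fold; 7 carriers, led by Slc15a3 and Slc15a2, are marked higher and 11 lower, 3 of the latter by the bound of their fold.

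Among carriers detected on both arrays, the largest differences belonged to the family of proton-coupled peptide carriers. Slc15a3, a lysosomal carrier of histidine and small peptides best known in macrophages and dendritic cells, was at 7.45 in wild type and 9.51 in the knockout. It was thus 4.17-fold higher, and its deposited intensity went from 158 to 729. Slc15a2 (PEPT2), which imports di- and tripeptides across the plasma membrane, was at 7.86 and 9.27, 2.67-fold higher. Each has 1 probe on the array, so neither has a second reading. Slc15a4, the other lysosomal histidine and peptide carrier of the family, did not share the difference. It was at 7.995 in wild type and 7.92 in the knockout at its brightest probe (-0.08), and its dimmer probe went the other way from its relatives, from 6.86 to 6.18 (-0.67).

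Because Slc15a3 is known from myeloid cells, the markers of those cells are given beside it. Of 12 listed macrophage and dendritic cell markers 10 were on the array and 6 were detected. Of these, 3 were higher by 1.5-fold or more and 0 were lower by as much, against 8.15% and 6.77% of all genes compared. The summed intensity of the 10 was 1051 in wild type and 1558 in the knockout. C1qa, C1qb, Itgax and Spic were not detected on either array. Lyz2 differed by 0.04, Adgre1 by -0.14 and Siglech by -0.30. Fcer1g and Vcam1 were 1.65-fold and 1.71-fold higher, and Tyrobp, detected in the knockout alone, was at least 2.23-fold higher. The part of such cells in the Slc15a3 value was not tested.

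The carriers of amino acids moved in both directions, with a median of -0.02 over 20 genes. Slc7a5, the light chain of the large neutral amino acid transporter LAT1, was at 10.71 in wild type and 11.34 in the knockout, 1.54-fold higher. Its partner Slc3a2, the CD98 heavy chain, was at 8.34 and 8.11 (-0.23), a difference about as large as the scatter between probes. Slc43a2 (LAT4), another carrier of branched and large neutral amino acids, was 1.94-fold lower, with 7.04 in wild type and 6.08 in the knockout. Slc38a9, the lysosomal carrier through which arginine is sensed by mTORC1, was at 8.499 and 7.67, 1.77-fold lower, and its second detected probe differed by -0.47. Both its readings were lower in the knockout.

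Other amino acid carriers detected on both arrays stayed within 1.5-fold at their brightest probe. Slc38a2 (SNAT2), a sodium-coupled carrier of glutamine and alanine, was at 11.85 and 11.50, and its probes both differed by -0.35. Slc6a6, the taurine carrier, differed by -0.26, and Slc7a6, a further partner of the CD98 heavy chain, by -0.02. Slc66a1, which exports cationic amino acids from the lysosome, differed by 0.44 and Slc38a7, a lysosomal glutamine carrier, by -0.14. Slc6a8, the creatine carrier, was detected in the knockout only and was at least 1.25-fold higher, which sets no upper limit. Some carriers often described in T cells were not detected at the threshold used. The glutamine carrier Slc1a5 had detection p-values of 0.201 in wild type and 0.0338 in the knockout, Slc38a1 had 0.125 and 0.0263, and the arginine carrier Slc7a1 had 0.185 and 0.694, so no fold is given for them.

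Carriers of inorganic ions and of acid or base had 4 of 19 genes at least 1.5-fold lower (21.1%, against 6.77% of all genes compared). Of the 19, 16 were detected on both arrays and 3 in wild type only. Of the 4, Slc26a6 and Slc4a1 were counted by the bound of their fold. Both were detected in wild type only, so they could be counted only as lower. On the series matrix values Slc24a3 alone of the 4 stayed past 1.5-fold. None was at least 1.5-fold higher, against 8.15% of all genes, and the class median was 0.06. Slc24a3 (NCKX3), which exchanges sodium for calcium and potassium, was at 7.61 in wild type and 6.602 in the knockout, 2.01-fold lower. Slc12a7 (KCC4), a potassium and chloride cotransporter, was at 8.41 and 7.72, 1.62-fold lower. Slc26a6, an anion exchanger, was at 6.59 in wild type and was not detected in the knockout, at least 1.71-fold lower. The other members of this class were mostly slightly above 0, 12 of the 19 in all, where 3556 of all 7611 genes compared were.

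Slc4a1 (band 3), the chloride and bicarbonate exchanger of red cells, was at 6.87 in wild type and was not detected in the knockout, at least 2.08-fold lower. Red cell and platelet markers were low on the same array. Of 12 listed, 7 were on the array and 2 were detected, Hba-a1 and Hbb-bt, which were 2.53-fold and 2.28-fold lower in the knockout. The summed intensity of the 7 was 510 in wild type and 235 in the knockout, and Alas2, Epb42, Gp9, Pf4 and Ppbp were not detected on either array. The part of red cells in the Slc4a1 value was not tested. Slc14a1, a urea carrier also known from red cells, had a difference of -0.23 at the brightest of 3 detected probes and of -0.72 and -0.18 at the rest.

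The rest of the ion carriers detected on both arrays were within 1.5-fold at their brightest probe, and Slc4a11, detected in wild type only, was at least 1.22-fold lower. Slc12a2 (NKCC1), which imports sodium, potassium and chloride, was at 10.63 and 10.91, and its probes differed by 0.27 and 0.15. Slc4a2, the anion exchanger of most cells, differed by -0.11. Slc8b1, the sodium and calcium exchanger of mitochondria, was at 9.004 and 9.38 (0.38). The phosphate importers Slc20a1 and Slc20a2 differed by 0.15 and 0.28. Slc4a8, a sodium-driven bicarbonate carrier, was just short of 1.5-fold at its brightest probe (0.58), but its second probe differed by -0.02.

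**Figure D2:**
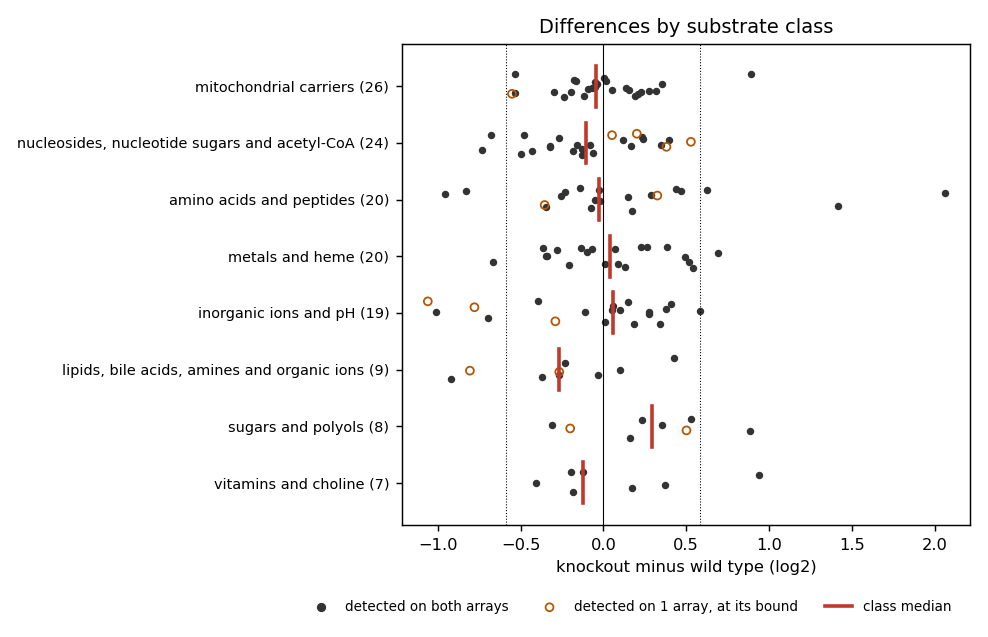
Difference between the knockout and the wild-type array (log2, x axis) for each compared solute carrier gene, by substrate class (y axis, number of genes in brackets, classes of at least 5 genes). Filled points were detected on both arrays, open points on 1 array and stand at the bound of their fold, red bars are class medians and dotted lines mark 1.5-fold; medians with genes at their bound run from -0.27 for lipids, bile acids, amines and organic ions to 0.29 for sugars and polyols.

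All 20 compared carriers of metals and heme were detected on both arrays, with a median of 0.04. The ZIP family (Slc39), which brings zinc into the cytosol, and the ZnT family (Slc30), which removes it, were centred near 0: 8 compared ZIP genes had a median of 0.10 and 5 compared ZnT genes a median of -0.10. Slc39a4 (ZIP4) was at 9.31 in wild type and 10.00 in the knockout, 1.62-fold higher. Slc39a6 (ZIP6) was at 10.21 and 10.75 (0.54) and Slc39a10 (ZIP10) at 7.61 and 7.997 (0.38), both short of 1.5-fold. Slc39a1 (-0.36) and Slc39a13 (-0.35) were on the other side of 0. Slc30a4 (ZnT4) was at 6.53 and 5.86, 1.59-fold lower, and its knockout value lay just above the dimmest detected probe of that array, 5.81. The ZnT genes of the early secretory pathway were nearly equal, with Slc30a5 at -0.10, Slc30a6 at 0.09 and Slc30a7 at 0.01.

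Among iron, heme and copper carriers none reached 1.5-fold. Slc11a1 (NRAMP1), a metal carrier of phagocyte vesicles, was at 10.27 in wild type and 10.49 in the knockout (0.23). On these arrays neutrophil markers were mostly lower in the knockout. Of 8 detected, 7 were at least 1.5-fold lower, against 6.77% of all genes compared, and Mmp9 differed by 0.25. Of the 7, Camp, Lcn2 and Retnlg were detected in wild type only and were counted by their bounds. Elane and Ngp were not detected on either array. Slc11a2 (DMT1), which imports iron, differed by -0.34, Slc40a1 (ferroportin), which exports it, by 0.26, and the heme carrier Slc48a1 by -0.21. The copper importer Slc31a1 differed by 0.49 and its relative Slc31a2 by -0.28.

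Mitochondrial carriers had the narrowest spread of the classes with at least 5 compared genes, with an SD over 26 genes of 0.33 against 0.52 over all genes, and a median of -0.05. The carriers that serve ATP synthesis differed little: Slc25a5, the X-linked ADP/ATP carrier, was at 13.56 and 13.84 (0.27), and Slc25a3, the phosphate carrier, at 12.44 and 12.49 (0.05, with -0.03 at its second probe). At least 1.5-fold higher was 1 of the 26 (3.85%, against 8.15% of all genes compared), and none was lower by as much (6.77% of all genes). Slc25a10, the dicarboxylate carrier, was the only one of the class counted as past 1.5-fold, with 5.7996 in wild type and 6.69 in the knockout. Its 1.85-fold difference starts from a wild-type value barely above the dimmest detected probe, at 5.7951.

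The remaining mitochondrial carriers went both ways, and those detected on both arrays were within 1.5-fold at their brightest probe. The citrate carrier Slc25a1 differed by 0.32 at its brightest probe and by 0.79 at a dimmer probe, and the pyrimidine nucleotide carriers Slc25a33 and Slc25a36 differed by 0.36 and -0.53. The aspartate and glutamate carrier Slc25a12 differed by -0.30, the coenzyme A carrier Slc25a42 by -0.53, and the oxoglutarate carrier Slc25a11 by -0.05. Slc25a38, the glycine carrier used in heme synthesis, was at 11.36 and 11.19, and its 3 probes differed by -0.24 to -0.13. The mitochondrial iron carrier Slc25a28 differed by 0.02 and the glutathione carrier Slc25a39 by 0.21. Slc25a29, a carrier of basic amino acids, was detected in wild type only and was at least 1.47-fold lower, with no upper limit to its fold.

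Carriers of lipids and organic ions had the lowest class median, -0.27. Of their 9 genes 7 were below 0, where 4051 of all 7611 genes compared were. Among those below 0, Slc27a3 and Slc10a7 were detected in wild type only, so they could hardly fall above 0. Over the members detected on both arrays, 7 in all, the class median was -0.23. It was -0.025 once undetected members were let in. At least 1.5-fold lower were 2 of the 9 (22.2%, against 6.77% of all genes), with Slc27a3 counted by its bound. Slc22a5 (OCTN2), which imports the carnitine used to bring fatty acids into mitochondria, was at 10.81 in wild type and 9.89 in the knockout, 1.89-fold lower. Its second detected probe was at 9.32 and 8.09 (-1.24), so both readings were lower in the knockout. The mitochondrial carnitine and acylcarnitine carrier Slc25a20, which acts later in that route, differed by 0.15 and by 0.43 at its second probe. Slc27a3, of the family of fatty acid transport proteins, was at 6.62 in wild type and was not detected in the knockout, at least 1.75-fold lower. Its relatives Slc27a4 and Slc27a1 differed by -0.37 and 0.10.

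Among nucleoside carriers, the sodium-coupled Slc28a2 (CNT2), which imports purine nucleosides, was at 8.27 in wild type and 7.54 in the knockout, 1.66-fold lower. The equilibrative carriers differed less or were higher: Slc29a1 (ENT1) was at 9.66 and 10.01 (0.35), Slc29a3, of intracellular membranes, differed by -0.08, and Slc29a2 and Slc29a4 were detected in the knockout only. Their bounds were at least 1.04-fold and at least 1.44-fold. Slc17a9, the vesicular nucleotide carrier, was at 8.94 and 8.45 (-0.48).

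The nucleotide sugar family Slc35, which feeds sugar donors to the Golgi apparatus and endoplasmic reticulum, had 17 compared members with a median of -0.13. Of the 17, 11 were below 0, where 4051 of all 7611 genes compared were. Slc35a5 was at 6.79 in wild type and 6.11 in the knockout, 1.60-fold lower, and its other detected probe differed by -0.84. Slc35d1, which carries UDP-glucuronic acid and UDP-N-acetylgalactosamine, was at 6.31 and 5.82 (-0.50). Several other carriers of known donors were closer to 0. Slc35c1, for GDP-fucose, was at 12.27 and 12.14 (-0.13, with 0.06 at its second probe), Slc35a1, for CMP-sialic acid, differed by -0.16 and Slc35a2, for UDP-galactose, by -0.06. Slc35b3, for the sulfate donor PAPS, differed by -0.18, and Slc35b1, which brings ATP into the endoplasmic reticulum, by 0.17. Slc33a1, the acetyl-CoA carrier, was detected in the knockout alone and was at least 1.15-fold higher.

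Sugar carriers had the highest class median, 0.29 over 8 genes. Of the 8, 6 were above 0, where 3556 of all 7611 genes compared were. Slc2a6 (GLUT6), a lysosomal member of the glucose transporter family, was at 7.54 in wild type and 8.42 in the knockout, 1.85-fold higher. Slc45a4 was at 7.22 and 7.75 (0.53), and Slc2a8, another intracellular glucose transporter, differed by 0.35. The glucose 6-phosphate carrier Slc37a4 differed by 0.23. Slc50a1, of the SWEET family, was at 11.66 and 11.35 (-0.31). Of the genes left out by the rule, Slc2a1 and Slc2a3, the main glucose importers, differed by -0.16 and -0.18. Slc16a1, Slc16a3 and Slc7a11 were not detected on either array.

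Of 7 compared vitamin and choline carriers 1 was at least 1.5-fold higher (14.3%, against 8.15% of all genes compared). None was lower by as much, against 6.77% of all genes. Slc52a3, a riboflavin importer, was at 8.64 in wild type and 9.58 in the knockout, 1.91-fold higher. The thiamine carrier Slc19a2 differed by 0.37 and the reduced folate carrier Slc19a1 by 0.17. Slc44a2, a choline transporter-like protein, was at 13.23 and 12.82 (-0.41), with -0.31 and -0.23 at its other probes. Slc5a6, the sodium-dependent multivitamin carrier, differed by -0.19 and the ascorbate carrier Slc23a2 by -0.19. Slc16a6 was the only compared monocarboxylate family member of its class and differed by -0.01, with 0.38 at its second detected probe. The symbols Slc9a3r1 (a scaffold protein, 0.0048), Slc4a1ap (-0.44) and Slc7a6os (-0.14) matched the rule by name but do not encode carriers.

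**Figure D3:**
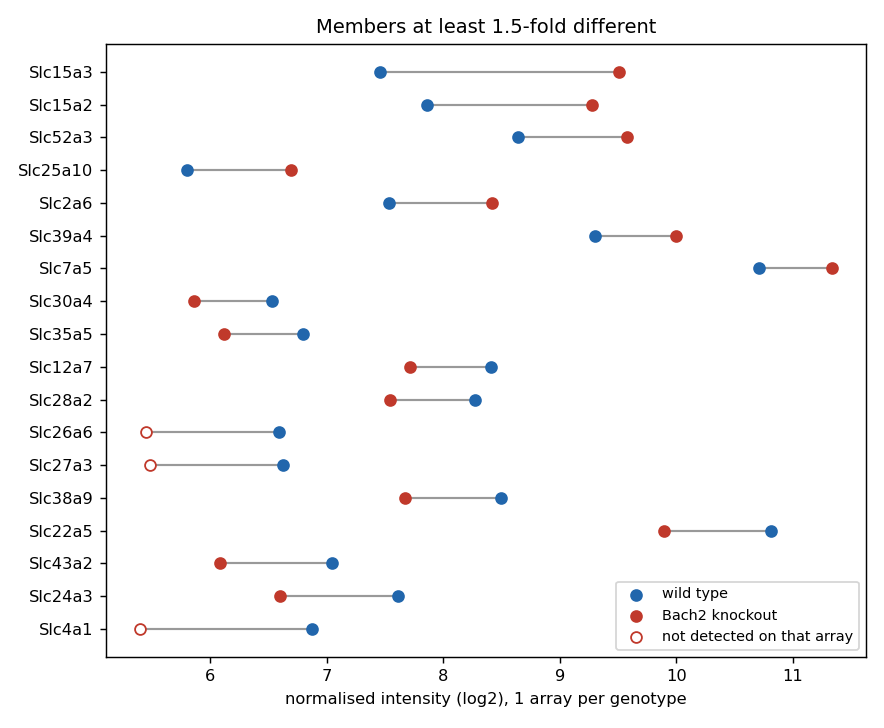
Normalised intensity (log2, x axis) of the 18 solute carrier genes (y axis) at least 1.5-fold different, on the wild-type array (blue) and the Bach2 knockout array (red), with open points where the gene was not detected. Slc15a3 has the longest line, from 7.45 to 9.51, and the open points are Slc26a6, Slc27a3 and Slc4a1 in the knockout.

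Over the 28 carriers with several detected probes, the probes of 22 shared 1 sign and those of 6 did not. All detected probes of Slc22a5, Slc35a5 and Slc38a9 were lower in the knockout, and those 3 were the only genes past 1.5-fold with a second detected probe. Slc35c2, for example, had differences of -0.43, -0.10 and 0.23. Of the 18 genes past 1.5-fold, all kept their direction under each of 10 other ways of processing the values that gave them one, and 9 stayed past 1.5-fold under all of them: Slc15a3, Slc15a2, Slc7a5, Slc39a4, Slc2a6, Slc52a3, Slc22a5, Slc24a3 and Slc38a9. For Slc24a3 the difference fell to -0.60 on the series matrix values. The other 9 were all under 1.5-fold on those values, Slc25a10 at 0.40 and Slc43a2 at -0.48, for example.

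**Figure D4:**
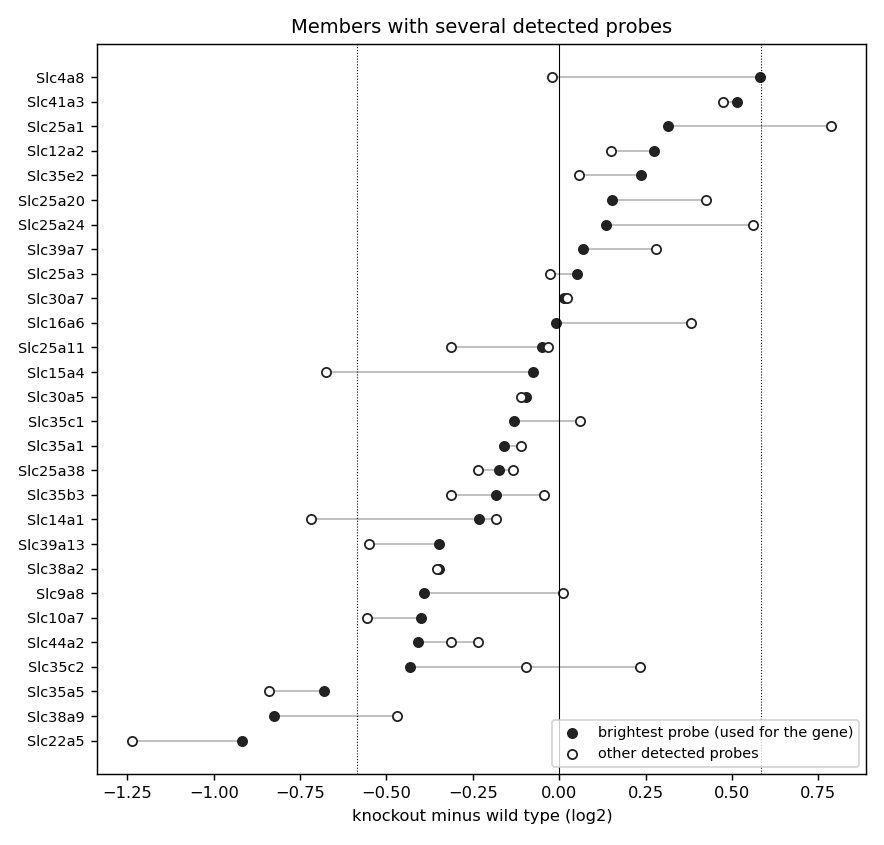
Difference between the knockout and the wild-type array (log2, x axis) at every detected probe of the 28 solute carrier genes with several (y axis), with the brightest probe filled, the other probes open and dotted lines at 1.5-fold. The probes of Slc22a5 lie at -1.24 and -0.92, whereas those of Slc35c2 run from -0.43 to 0.23.

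The promoters of the carriers were searched for the sequence that Bach proteins are known to bind with small Maf partners and that AP-1 factors also bind, since Bach2 is the deleted gene. The promoter table, from RefSeq on GRCm38.p6, held 110 of the 137 compared carriers and 13 of the 18 past 1.5-fold. In the 250 bases before the annotated start, on both strands, TGAGTCA was found for 1 of the 110 carriers (0.909%), against 3.70% of 6291 compared genes and 5.16% of all genes in the table. None of the 13 carriers past 1.5-fold had it. The promoter with the match, that of the urate and hexose carrier Slc2a9, is shown first, with the match in capitals as its reverse complement. Those of Slc15a2 and Slc22a5 are shown since Slc15a2 had the largest higher value among carriers in the table and Slc22a5 was lower at both of its detected probes, and neither holds a match. All 3 lie on the minus strand and are written 5′ to 3′ on it, at chr5:38483386-38483635, chr16:36784963-36785212 and chr11:53891704-53891953.
Slc2a9: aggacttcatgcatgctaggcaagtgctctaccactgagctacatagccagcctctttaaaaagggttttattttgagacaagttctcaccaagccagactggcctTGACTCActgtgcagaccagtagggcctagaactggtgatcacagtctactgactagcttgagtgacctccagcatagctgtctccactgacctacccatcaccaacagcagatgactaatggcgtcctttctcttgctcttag
Slc15a2: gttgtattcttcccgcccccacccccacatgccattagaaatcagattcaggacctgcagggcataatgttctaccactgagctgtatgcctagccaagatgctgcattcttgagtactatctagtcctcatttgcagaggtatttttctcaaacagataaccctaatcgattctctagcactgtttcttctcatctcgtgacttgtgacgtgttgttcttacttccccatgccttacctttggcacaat
Slc22a5: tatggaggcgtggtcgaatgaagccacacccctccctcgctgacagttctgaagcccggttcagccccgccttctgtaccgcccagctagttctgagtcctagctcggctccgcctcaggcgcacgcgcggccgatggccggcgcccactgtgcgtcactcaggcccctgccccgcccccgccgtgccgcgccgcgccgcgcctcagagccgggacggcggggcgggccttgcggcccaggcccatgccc
Slc2a9 itself was at 6.02 in wild type and was not detected in the knockout, at least 1.15-fold lower. A match is a string of letters and not a shown binding site, and its absence here covers only these windows.

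Other short motifs were searched in the same windows, again on both strands and with no test. The E-box CACGTG, bound by Myc and by the lysosomal regulators TFEB and TFE3, was found for 19 of the 110 carriers (17.3%), against 10.3% of compared genes. It was found for 2 of the 13 carriers past 1.5-fold, Slc12a7 and Slc35a5. The cyclic AMP response element TGACGTCA was found for 2 carriers (1.82%, against 3.04%), and GATAAG, which GATA factors bind, for 5 (4.55%, against 5.45%). The amino acid response element TGATGNAAT was found for 0, against 0.493% of compared genes, a share too small for 0 of 110 to be read as a lack.

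Genes that work with the solute carriers were read from 3 further lists. Of all genes compared, 8.15% were at least 1.5-fold higher and 6.77% lower. Of 20 listed carriers and transport proteins outside the naming rule, 11 were compared, and 3 were at least 1.5-fold higher and 1 lower. Slco4a1, an organic anion carrier, was at 7.22 in wild type and 8.49 in the knockout (1.27), and Mfsd2a, a lysophospholipid importer, at 7.39 and 8.19 (0.80). Unc93b1, which escorts Toll-like receptors to endosomes, differed by 0.70. Spns1, a lysosomal lipid exporter, was at 7.74 and 6.64, 2.15-fold lower. The phosphate exporter Xpr1 (-0.03) and Mfsd1 (0.04) were near equal.

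The ion pumps that build the gradients which many carriers use were within 1.5-fold with 1 exception. Of 17 listed, 13 were compared, none was at least 1.5-fold higher and 1 was lower, against 8.15% and 6.77% of all genes. That gene was Atp1b1, a beta subunit of the sodium pump, at 9.57 in wild type and 6.93 in the knockout. The other compared beta subunit gene, Atp1b3, was at 13.97 and 13.75 (-0.22). The calcium pump Atp2a3 of the endoplasmic reticulum differed by 0.04, and the vacuolar proton pump subunits Atp6v1a and Atp6v0d1 by 0.15 and 0.05.

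Of 28 listed genes of amino acid sensing and response, 21 were compared, with a median of -0.0036. Of the 21, 1 was at least 1.5-fold higher and 3 were lower, against 8.15% and 6.77% of all genes. Asns, asparagine synthetase, was at 8.06 in wild type and 9.10 in the knockout (1.04). Ddit4, an inhibitor of mTORC1, was at 11.63 and 10.46, 2.26-fold lower, and Lamtor2, a subunit of the lysosomal Ragulator scaffold, at 9.86 and 8.99, 1.83-fold lower. Sesn1, of the sestrin family that restrains mTORC1, was at 12.22 and 11.40, 1.77-fold lower. Mtor (0.01) and Rheb (0.05) were near equal. Myc was detected in wild type only, with a bound of -0.58.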

How the data were processed

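For 25697 probes on 2 Illumina arrays the authors deposited intensity values, called non-normalized per the file headers, and detection p-values. The deposited intensities were background-subtracted, since 30.4% (wild type) and 29.5% (knockout) were below 0. They also deposited a series matrix of intensity values, which for each array was a straight-line function of that table (slopes 0.782 and 0.779, intercepts 86.6 and 83.3) and thus no independent measurement. The labels do not name the scanner software.

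Gene symbols come from GEO's annotation of the platform, and all 321 member symbols matched RefSeq by gene number; 1719 probes are unnamed here. Background was corrected by normexp using detection p-values to estimate the noise, with 16 added as an offset, and arrays were quantile normalized and put on the log2 scale (neqc, limma 3.58.1, R 4.3.3). For a gene not detected on 1 array the fold is a bound, the detected value against the gene's value or the dimmest detected probe of the other array, whichever is higher (5.7951 in wild type, 5.81 in the knockout). Medians and class differences use normalized values unless a bound is named. Summed intensities add the deposited intensity of each listed gene's brightest probe. Quantile normalization hides any shift common to all genes, the offset pulls dim differences towards 0, and the number of arrays limits the precision.

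Substrate classes were assigned by family, apart from single genes that were placed gene by gene, such as Slc16a10 and Slc17a9. Slc49a4, not detected, was left without a class. Named were all members past 1.5-fold, the 3 brightest of each class, members whose probes disagree in sign with 1 past 1.5-fold, and genes of the fixed lists past 1.5-fold; further members are given to describe each class and were picked with their values known. The members and lists were chosen with earlier results of these data known. The steps were tested on simulated data. Alternatives changed the background correction, normalization, offset (1 and 50), input table, detection threshold (0.05, both arrays, none) and probe summary.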

Additional observations from a re-analysis of the deposited data

How the results depend on the processing

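No paired analysis was possible because each genotype had 1 array, and for the same reason no library was left out. The median over all compared genes moved by less than 0.1 under every alternative run, and so did that over the solute carriers, which ran from -0.031 with an offset of 1 to 0.013 with cyclic loess.

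The count of carriers at least 2-fold lower, 2 as reported, was 0 with no background correction, with an offset of 50 and on the series matrix values, 1 with cyclic loess and with genes detected on both arrays, and 4 with an offset of 1, with a detection p-value under 0.05 and without a filter on dim probes. The count at least 1.5-fold lower, 11 as reported, was 3 on the series matrix values (2.19%, against 2.93% of all genes) and 21 with no filter (6.54%, against 4.81%), and the count at least 1.5-fold higher, 7 as reported, was 16 with no filter (4.98%, against 5.25%), where 321 genes were compared. With no filter the median of carriers of lipids, bile acids, amines and organic ions was -0.025 in place of -0.27, and that of sugar and polyol carriers 0.060 in place of 0.29. The unfiltered values add genes not detected on either array, and the series matrix keeps a constant (intercepts of 86.6 and 83.3) that shrinks differences of dim genes. Of 427 values of the 43 genes named by the rule, 402 moved by less than the scatter between probes, 25 moved by more and 0 changed sign from a call. Under median scaling and the mean of the detected probes every count stayed within 1.5 times the reported one and every class median moved by less than the scatter between probes. Dim members, such as Slc25a10 and Slc30a4, lie near the detection limit of 1 array, which limits how far their folds can be read.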
